A study of Drosophila melanogaster with 9 samples.

Results

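The genes described here control the step from G1 into S phase in Drosophila: the cyclins CycE and CycD, their kinases Cdk2 and Cdk4, the inhibitor dap (dacapo) and the F-box protein gene ago (archipelago). They were taken by name, and every probe set annotated to 1 of these 6 genes was used. The annotation paired 5 of the 6 with a probe set, and each of the 5 had 1 probe set, among 11983 genes measured in all. dap had no probe set in the annotation used and was not analysed here. The probe sets were 1626249_s_at for CycE (CG3938), 1640394_s_at for Cdk2 (CG10498), 1627295_s_at for CycD (CG9096), 1639347_s_at for Cdk4 (CG5072) and 1633515_s_at for ago (CG15010). The suffix _s_at marks sets whose probes match several transcripts, which may belong to different genes. The annotation gives each of these sets 1 gene, and whether other transcripts add to its signal was not tested.

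RNA from eye imaginal discs, the larval tissue from which the adult eye develops, was read on 9 Affymetrix arrays, in 3 groups of 3 biological replicates from larvae of the third instar. The control group had the genotype w1118 Gal4, the rbf1 mutant group rbf1120a Gal4, and the group overexpressing PSC (Posterior sex combs, a Polycomb group protein) w1118 psc. The labels name no Gal4 driver, do not mention Gal4 for the PSC group and do not say how much Rbf function the rbf1120a allele leaves or how many animals went into a sample. Stock and group go together, so an effect of the genotype and one of the stock cannot be told apart. The series asks how loss of rbf1 and extra PSC each change expression relative to control discs.

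In the G1/S circuit, CycD with Cdk4 and CycE with Cdk2 phosphorylate the retinoblastoma protein Rbf, which frees the transcription factor E2F to switch on S phase genes. CycE is itself a textbook E2F target, and CycE with Cdk2 starts DNA replication. dap binds and blocks CycE with Cdk2, and ago, the fly counterpart of mammalian FBXW7, directs CycE protein to degradation. In the larval eye disc most cells ahead of the morphogenetic furrow divide, cells in the furrow arrest in G1, and some re-enter S phase just behind it in the second mitotic wave. A whole disc sample therefore mixes cells in all these states, and more cells of a type and more RNA per cell cannot be told apart.

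In rbf1 mutant discs the cyclin and the kinase of the CycE complex rose, and those of the CycD complex did not pass the test. CycE was 1.73-fold and Cdk2 1.94-fold higher than in control discs. CycD, Cdk4 and ago stood lower than control by 0.17, 0.14 and 0.07 on the log2 scale without passing. In PSC overexpressing discs, where 3.8% of all genes passed against control, 0 of the 5 did, a count too small to set these genes apart from the rest.

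Values below are RMA log2 intensities, in which a difference of 1 is a 2-fold change. Each probe set reads on its own scale, so levels are compared between groups and not between genes. A gene is said to have risen or fallen where its limma p, adjusted by Benjamini-Hochberg over all 11983 genes, was under 0.05. In rbf1 mutant against control 10.2% of all genes passed (1226 genes, 6.31% higher and 3.92% lower), and 2 of the 5 G1/S genes did, both higher. The split of calls moves with scaling: 61.7% of them were higher as deposited, 77.3% with arrays centred on the median of all probe sets and 48.1% with arrays centred on the median gene, and the G1/S calls were the same 2 genes each time.

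CycE, the cyclin that partners Cdk2 at the start of S phase, read 12.11, 11.63 and 12.08 in rbf1 1 to 3, against 11.28, 11.25 and 10.93 in control 1 to 3. All 3 mutant arrays lay above all 3 control arrays, and rbf1 2 was the lowest mutant array by 0.45. The difference was 0.79 (SE 0.146, 95% interval 0.45 to 1.12, limma adjusted p = 0.0109). By unadjusted p it ranked 624 of 11983 genes. The call held with each of the 9 arrays left out in turn, with differences between 0.68 and 0.94 and limma adjusted p up to 0.0449.

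Cdk2, the kinase that CycE activates, read 11.56, 11.61 and 11.38 in the rbf1 arrays and 10.62, 10.70 and 10.37 in the control arrays. The groups were separated by more than the spread within either. The difference was 0.95 (SE 0.117, 95% interval 0.69 to 1.22, limma adjusted p = 0.00138), and it ranked 261 by unadjusted p. With 1 array left out the difference stayed between 0.86 and 1.02 and limma adjusted p reached at most 0.00889. Cdk2 varied less among the mutant arrays (SD 0.12, n = 3) than CycE did (SD 0.27, n = 3).

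**Figure D1:**
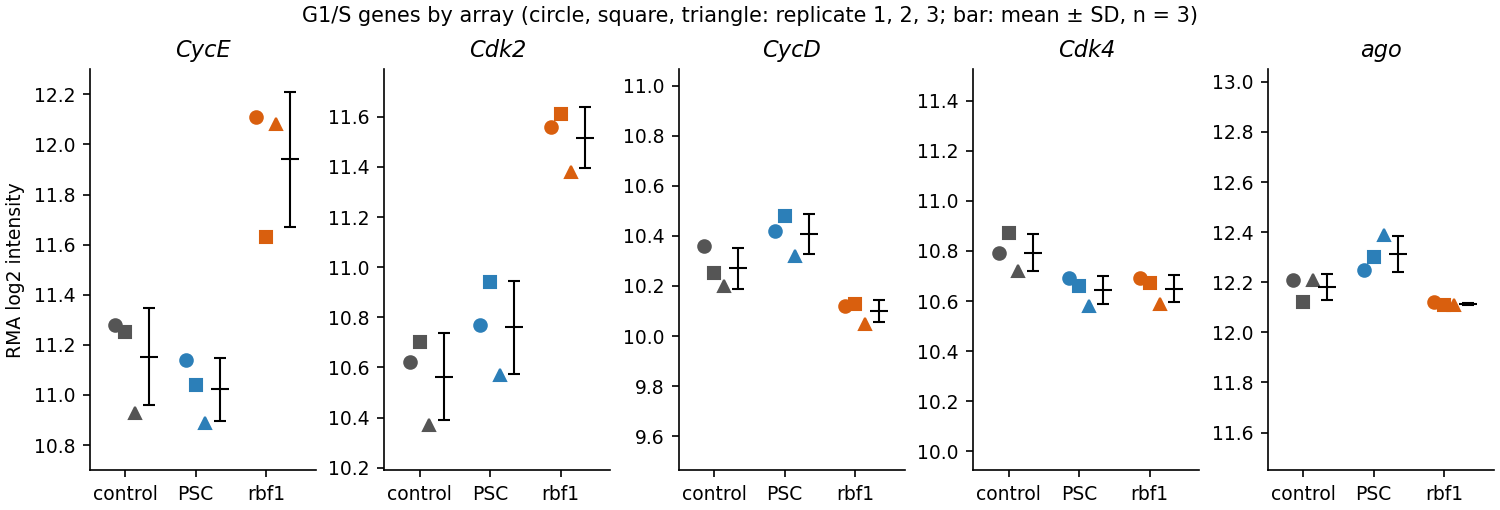
RMA log2 intensity (vertical axis, the same span of 1.6 in each panel) of CycE, Cdk2, CycD, Cdk4 and ago on each of the 9 arrays by group, with mean ± SD (n = 3) beside the points. The CycE and Cdk2 points of the rbf1 group lie above all control and PSC points, and each of the other genes spans at most 0.43 over the 9 arrays.

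CycD, the partner of Cdk4, read 10.12, 10.13 and 10.05 in the rbf1 arrays and 10.36, 10.25 and 10.20 in control arrays. The mutant arrays lay below every control array, and such separation in either direction was seen for 28.9% of all genes in this comparison. The difference of -0.17 (SE 0.061, 95% interval -0.31 to -0.03) did not pass (limma adjusted p = 0.132).

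Cdk4, the kinase of CycD, read 10.69, 10.67 and 10.59 in the mutant and 10.79, 10.87 and 10.72 in control. The highest mutant array stood just under the lowest control array. The difference was -0.14 (SE 0.056, 95% interval -0.27 to -0.01) and did not pass (limma adjusted p = 0.17). For both CycD and Cdk4 the interval for the single gene excludes 0 while the p adjusted over all genes misses the threshold, and both intervals exclude a rise of the size seen for CycE or Cdk2.

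ago read 12.12, 12.11 and 12.11 in the rbf1 arrays and 12.21, 12.12 and 12.21 in control arrays. The mutant values almost touch control 2. The difference was -0.07 (SE 0.050, 95% interval -0.18 to 0.05, limma adjusted p = 0.467).

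In PSC overexpression against control 3.8% of all genes passed (455 genes, 1.42% higher and 2.38% lower), and 0 of the 5 G1/S genes did, by limma or by the linear model without moderation. At an unadjusted p under 0.05, which 16.5% of all genes reached, 2 of the 5 passed, Cdk4 and ago. CycE read 11.14, 11.04 and 10.89 in the PSC arrays, which overlapped control. The difference was -0.13 (SE 0.146, 95% interval -0.46 to 0.21, limma adjusted p = 0.732). Cdk2 read 10.77, 10.94 and 10.57, also overlapping control, with a difference of 0.19 (SE 0.117, 95% interval -0.07 to 0.46, limma adjusted p = 0.478). These intervals leave room for a rise of Cdk2 of up to 0.46 and a fall of CycE of as much.

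CycD in the PSC arrays read 10.42, 10.48 and 10.32, and PSC 3 lay below control 1. Its difference from control was 0.14 (SE 0.061, 95% interval -0.002 to 0.28, limma adjusted p = 0.31). Cdk4 read 10.69, 10.66 and 10.58 in PSC discs, below every control array. It stood at -0.15 (SE 0.056, 95% interval -0.28 to -0.02, limma adjusted p = 0.225), next to -0.14 in the rbf1 mutant. The same 3 control arrays enter both values. ago read 12.25, 12.30 and 12.39 in PSC discs, above every control array, at 0.13 (SE 0.050, 95% interval 0.02 to 0.25, limma adjusted p = 0.224). Separation of the 3 PSC from the 3 control arrays occurred for 21.7% of all genes.

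**Figure D2:**
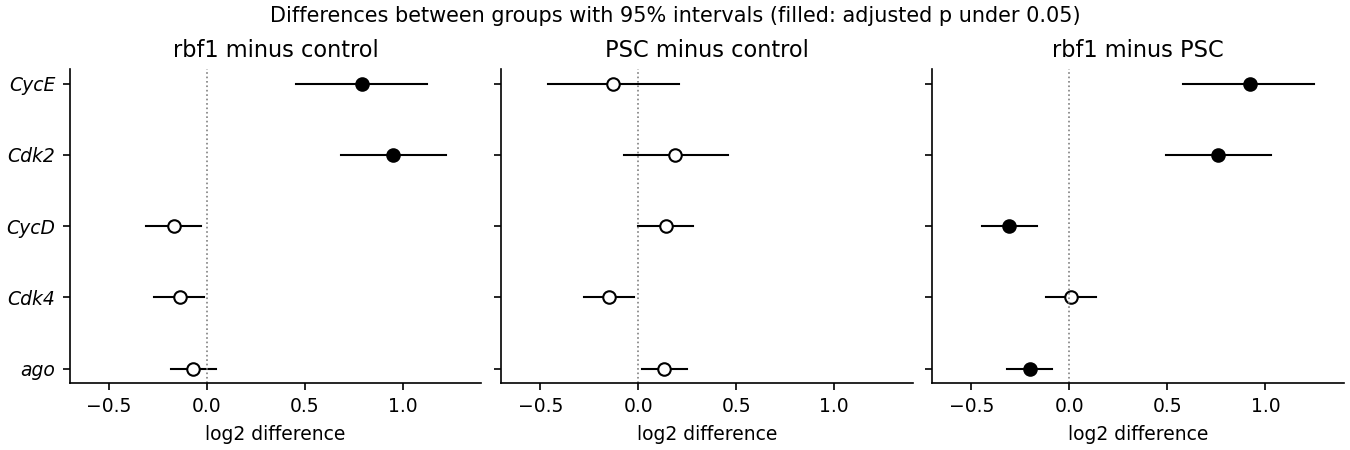
Log2 differences (horizontal axis) of the 5 genes in rbf1 minus control, PSC minus control and rbf1 minus PSC, with 95% intervals from limma. Filled points passed an adjusted p of 0.05: CycE at 0.79 and Cdk2 at 0.95 in the first panel, none in the second, and CycE, Cdk2, CycD and ago in the third.

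The altered groups were then set against each other, which tests whether both effects differ, since both are taken from the same control arrays. Here 10.6% of all genes passed (1266 genes, 6.91% higher and 3.66% lower in rbf1), and 4 of the 5 G1/S genes did. The share of calls that were higher in rbf1 was 65.4%, and 43.7% with arrays centred on the median gene. CycE was 0.92 higher in rbf1 than in PSC discs (SE 0.146, 95% interval 0.58 to 1.25, 1.89-fold, limma adjusted p = 0.0053). Cdk2 was 0.76 higher (SE 0.117, 95% interval 0.49 to 1.03, 1.69-fold, limma adjusted p = 0.00439). Both calls held with any 1 array left out, with limma adjusted p up to 0.0239 and 0.022.

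CycD was lower in rbf1 than in PSC discs by 0.31 (SE 0.061, limma adjusted p = 0.0145), or 1.24-fold higher in PSC, and the highest rbf1 array at 10.13 lay below the lowest PSC array at 10.32. Arrays of these groups were separated for 30.5% of all genes. Its call was lost without PSC 1 (limma adjusted p = 0.057), PSC 2 (0.0531) or rbf1 3 (0.0551). ago was lower in rbf1 by 0.20 (SE 0.050, limma adjusted p = 0.0377), 12.12 at most against 12.25 at least. Leaving out any of the 9 arrays except control 2 or control 3 ended the ago call, with limma adjusted p between 0.0507 and 0.11. It was also lost with arrays centred on the median of all probe sets (limma adjusted p = 0.0728), with only these 6 arrays fitted (0.065), with the salivary glue genes as a covariate (0.0831) and with every probe set tested (0.051). For CycD and ago the rbf1 and PSC means lay on opposite sides of the control mean, and neither group passed against control. Cdk4 did not differ beyond its error, at 0.01 (SE 0.056, 95% interval -0.12 to 0.14, limma adjusted p = 0.956).

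**Figure D3:**
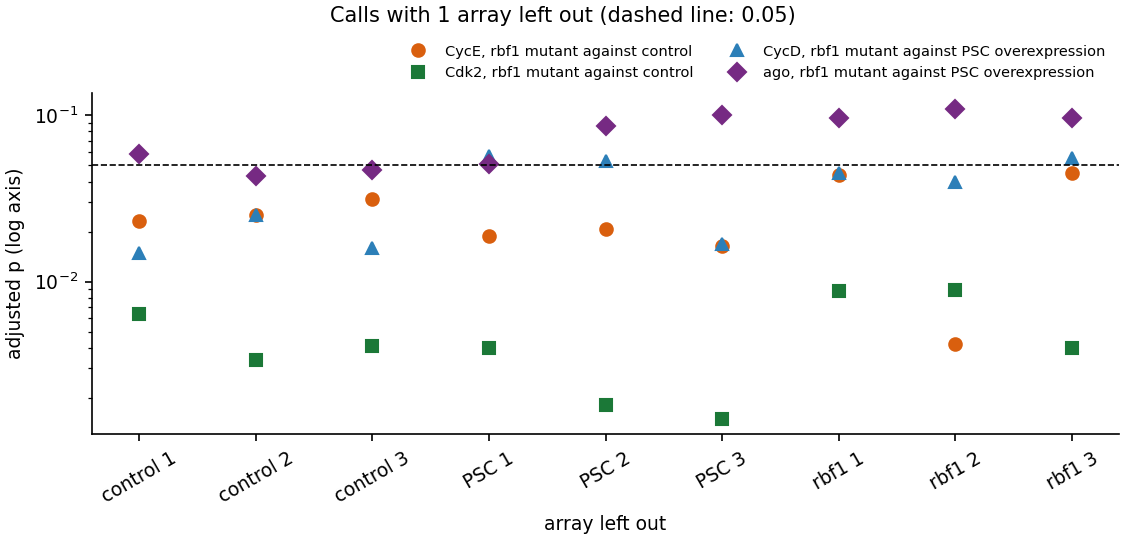
Limma adjusted p (vertical log axis) of 4 calls with each of the 9 arrays left out in turn (horizontal axis): CycE and Cdk2 in rbf1 against control, CycD and ago in rbf1 against PSC overexpression. All Cdk2 and CycE points lie under the dashed line at 0.05, CycD crosses it for 3 arrays and ago for 7.

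In order of level, CycE was highest in rbf1, then control, then PSC, with control and PSC not differing beyond their spread. Cdk2 ran from rbf1 through PSC to control, and PSC and control overlapped. CycD and ago ran from PSC through control to rbf1, where PSC and rbf1 alone differed by the test. Cdk4 was highest in control and nearly level in the other groups. For 3 arrays against 3 an exact two-sided permutation test cannot go below p = 0.1. All 5 genes reached that value in rbf1 against control, where the groups were separated for 28.9% of all genes. Cdk4 and ago reached it in PSC against control (21.7% of all genes), and all but Cdk4 in rbf1 against PSC (30.5%). Every gene whose groups do not overlap has this value, so it does not set genes apart.

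The proteins on which these genes act, and those that act on them, were read as lists. Of the RB and E2F list, 4 of 5 genes were measured without E2f1, which was not analysed here. Of these 2 rose and 1 fell in the rbf1 mutant, where 10.2% of all genes passed. Rbf2, the second retinoblastoma family gene, rose by 0.94 (SE 0.117) from 8.91 ± 0.18 to 9.85 ± 0.10 (SD, n = 3), and limma adjusted p was 0.00152. Dp, the partner of E2F, rose by 0.42 (SE 0.068) from 10.92 ± 0.07 to 11.34 ± 0.07 (limma adjusted p = 0.00557). Rbf itself, the altered gene, fell by 0.37 (SE 0.096, limma adjusted p = 0.0479), a call lost without 6 of the 9 arrays (adjusted p up to 0.145), with arrays centred on the median of all probe sets (0.0988), without moderation (0.0973), with the mean of the salivary glue genes as a covariate (0.097) and with every probe set tested (0.0556). E2f2, named after its value was seen, was 0.19 higher without passing. In PSC discs Psc rose by 2.67, 6.35-fold (SE 0.058, limma adjusted p = 3.12e-07), and 0 of the 4 RB and E2F genes passed, where 3.8% of all genes did. In rbf1 against PSC, where 10.6% of all genes passed, Rbf2 was 0.70 higher (limma adjusted p = 0.00671) and Dp 0.41 higher (0.00621). Rbf stood at -0.39 there (limma adjusted p = 0.0389), a call that leaving out 1 array could end (adjusted p up to 0.121).

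Of 16 genes listed as regulators of the G1/S genes, 14 were measured. In rbf1 mutant discs, where 10.2% of all genes passed, 0 rose and 0 fell. The list holds SCF ligase subunits that work with ago (SkpA, Cul1, Roc1a), the Cks proteins and the Cdk activating kinase genes Cdk7 and CycH. It also holds Max, Mnt, rux, fzr, slmb, Hph and yki. The list was drawn up by name, and whether each of its genes acts on the G1/S genes was not tested. Their differences from control lay between -0.10 and 0.11, with a median of -0.02 where the median of all genes was -0.004. In PSC discs, where 3.8% of all genes passed, 0 did as well, between -0.17 and 0.13. A count of 0 of 14 is too small to set the list apart from the rest.

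Of 17 other cyclins and Cdks, 14 were measured. In the rbf1 mutant 1 rose, the mitotic cyclin CycB3, by 0.44 (SE 0.086, limma adjusted p = 0.0131), from 10.46 ± 0.08 to 10.90 ± 0.08 (SD, n = 3). It lost its call without rbf1 2 (adjusted p = 0.0554). The list had a median of -0.02, and its other 13 measured members did not pass, in a comparison where 10.2% of all genes passed. In PSC discs CycK, a partner of the transcriptional kinase Cdk12, rose by 0.32 (SE 0.054, limma adjusted p = 0.0158), and this call was lost without any 1 control or PSC array except control 3 (adjusted p up to 0.059) and with only those groups fitted (0.0606). Cdk9, a transcription elongation kinase, was 0.29 lower in rbf1 than in PSC discs (limma adjusted p = 0.00846), and CycB3 was 0.38 higher there (limma adjusted p = 0.0248), a call lost without PSC 1, rbf1 1 or rbf1 2 (adjusted p up to 0.0919), with arrays centred on the median gene, without moderation and with the glue covariate.

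The S phase genes that E2F is known to activate rose alongside CycE and Cdk2. Of 14 listed, 11 were measured, and all 11 rose in the rbf1 mutant, where 10.2% of all genes passed and 6.31% were higher. Their differences ran from 0.95 to 1.51, with a median of 1.21. In the PSC group, where 3.8% of all genes passed, 0 of the 11 did, and the median was 0.10. The licensing factor genes dup, at 1.51 (SE 0.112), and Cdc6, at 0.95 (SE 0.060), mark the ends of the range. Between them, and also among the 8 with the smallest adjusted p, lay the replicative helicase genes Mcm5 at 1.44, Mcm2 at 1.32 and Mcm6 at 1.19, and Cdc45, which activates that helicase, at 1.21. The DNA polymerase alpha gene PolA1 stood at 1.42 and the ribonucleotide reductase gene RnrL at 1.16. CycE at 0.79 lay below the range and Cdk2 at its lower end. In rbf1 against PSC, where 10.6% of all genes passed, all 11 S phase genes were higher as well, by 0.79 to 1.52. That this group rises in rbf1 mutant discs was known when the list was written, so its count is no independent evidence of direction.

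**Figure D4:**
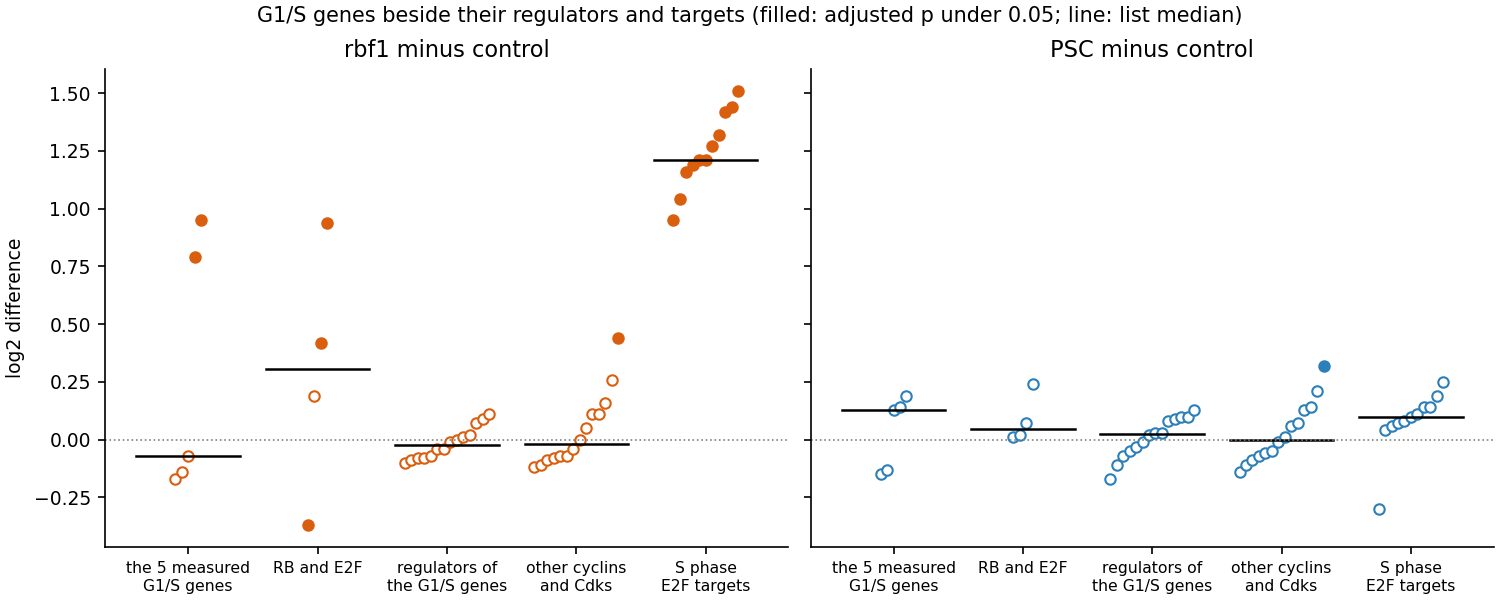
Log2 differences (vertical axis) in rbf1 minus control (left) and PSC minus control (right) of the 5 G1/S genes, RB and E2F genes, regulators of the G1/S genes, other cyclins and Cdks, and S phase E2F targets, 1 point per gene with the list median as a line. In the left panel the 11 S phase points are filled (adjusted p under 0.05) between 0.95 and 1.51, while the 14 regulators lie between -0.10 and 0.11.

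The genes whose profile lay closest to each G1/S gene were found by the root mean square difference of centred log2 values over the 9 arrays. This is a description, and no test was attached to it. Nearest to CycE were CG12177 (0.086), insv (0.113) and XRCC1, a single-strand break repair gene (0.136), where the CycE profile itself had a root mean square of 0.437. They stood at 0.86, 0.81 and 0.79 in rbf1 minus control. Nearest to Cdk2, with 0.432 of its own, were CG12713 (0.037), the flap endonuclease gene Fen1 (0.043) and RPA3, a subunit of the single-stranded DNA binding complex RPA (0.054). In rbf1 minus control they stood at 0.90, 0.93 and 0.90.

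The flatter profiles gave other neighbours. For CycD, at 0.138, the closest were CG31638 (0.042), Cdk9 (0.042) and rau (0.049). They stood at -0.28, -0.29 and -0.27 in rbf1 minus PSC. For ago, at 0.094, they were Spn27A (0.026), a serine protease inhibitor gene, the deubiquitinase gene Yod1 (0.029) and VhaSFD (0.030), a subunit gene of the vacuolar proton pump. How many other genes lie about as close to these flat profiles was not counted.

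Markers were read on the same arrays. The mean of 9 eye disc markers lay between 11.29 and 11.47 on all 9 arrays. Among them toy was lower in rbf1 than in control by 0.24 (limma adjusted p = 0.0134), and ato and dac were lower in rbf1 than in PSC by 0.52 (adjusted p = 0.00996) and 0.49 (adjusted p = 0.0299). The calls of toy and dac were lost without rbf1 2, that of dac also without PSC 1, PSC 2, rbf1 1 or rbf1 3. The 6 glue genes of the salivary gland averaged 6.52, 13.10 and 13.03 in the control arrays, 9.53, 10.08 and 12.24 in PSC, and 6.40, 11.75 and 7.11 in rbf1. rbf1 2, the mutant array with the most glue RNA, was also the one with the lowest CycE. CycE ran in the opposite order to glue in the rbf1 arrays (12.11, 11.63 and 12.08) and in the PSC arrays (11.14, 11.04 and 10.89). Control 1, with the least glue of its group, had the highest CycE there (11.28), while control 2 and control 3 (11.25 and 10.93) did not keep that order. The cause was not tested. Cdk2 was highest of the mutant arrays on rbf1 2, at 11.61 against 11.56 in rbf1 1 and 11.38 in rbf1 3. With the glue mean as a covariate CycE stood at 0.65 (limma adjusted p = 0.0145) and Cdk2 at 0.93 (0.00681) in rbf1 against control. The mean of 3 measured fat body markers, of 6, ran from 7.10 to 8.53 in rbf1, 8.15 to 9.04 in control and 8.79 to 10.02 in PSC arrays. Of these, Fbp2 was lower by 2.21 in rbf1 than in PSC (limma adjusted p = 0.00309). In rbf1 against control and PSC against control, where 10.2% and 3.8% of all genes passed, 0 of the 3 did.

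The mean of 6 haemocyte markers ran from 9.44 to 9.95 in rbf1, 10.02 to 10.42 in control and 10.28 to 10.66 in PSC arrays. In rbf1 against control, where 10.2% of all genes passed, 2 of the 6 did. They were the prophenoloxidase genes PPO1, at -1.25 (limma adjusted p = 0.0251), and PPO2, at -1.10 (0.0448). Leaving out control 1, control 2, rbf1 1 or rbf1 2 ended the PPO1 call, and leaving out any array except rbf1 3 that of PPO2 (adjusted p up to 0.0814 and 0.129). Hml stood at 0.03 and NimC1, srp and eater between -0.56 and -0.25 without passing. In rbf1 against PSC PPO1 was lower by 1.97 (limma adjusted p = 0.00305), PPO2 by 1.94 (0.0035) and NimC1 by 0.84 (0.0348), the last a call lost without 7 of the 9 arrays (adjusted p up to 0.116). In PSC against control, where 3.8% of all genes passed, 0 of the 6 did. The part of fat body and haemocyte RNA in the G1/S values was not tested.

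The means of 4 glia markers (9.31 to 9.61 on all arrays), 5 neuroblast markers (7.34 to 7.99) and 2 measured muscle markers (11.86 to 12.45) overlapped between groups, while single genes differed. The glial gene repo was higher by 0.52 in rbf1 than in control (limma adjusted p = 0.000274), by 0.29 in rbf1 than in PSC (0.00553) and by 0.23 in PSC than in control (0.0327). The call in PSC discs was lost without 7 of the 9 arrays, where adjusted p reached 0.122. Among neuroblast markers, ase was higher by 1.18 in rbf1 than in PSC (limma adjusted p = 0.00429), and dpn stood at -0.35 there (0.0494). In PSC against control mira stood at 0.70 (limma adjusted p = 0.0492) and ase at -0.95 (0.0248). Both sets read below the median gene at 8.15, ase with means of 7.05 in rbf1, 6.83 in control and 5.87 in PSC. The mira means lay between 7.35 in control and 8.05 in PSC. The calls of dpn and mira were each lost without 8 of the 9 arrays (adjusted p up to 0.133 and 0.152), and that of ase in PSC against control without 5 (up to 0.0881).

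The mean of 5 genes of other discs was 7.82 to 7.87 in rbf1, 7.58 to 7.64 in control and 7.46 to 7.56 in PSC arrays. Among them vg was higher by 1.0 in rbf1 than in PSC (limma adjusted p = 0.000471) and by 0.41 in rbf1 than in control (0.036). It was lower by 0.59 in PSC than in control (0.0154). The vg set was dim, with means of 6.11 in rbf1, 5.70 in control and 5.11 in PSC, where the median gene read 8.15. The call of vg in rbf1 against control was lost without 8 of the 9 arrays (adjusted p up to 0.102), and that in PSC against control without 3 (up to 0.0628). bab1 was higher by 0.64 in rbf1 than in control (limma adjusted p = 0.00185) and by 0.46 in rbf1 than in PSC (0.00916). The part of these cells in the G1/S values was not tested.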

How the data were processed

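Total RNA was amplified to biotin-labelled cRNA and hybridized to the Affymetrix Drosophila Genome 2.0 Array, per the labels. The authors deposited 1 log2 intensity for each probe set and array, computed with RMA per the submitters' processing notes (version not given in the sources used here); array medians lay between 5.83 and 5.92. No further normalization or filter was applied. Control probe sets (183 of 18952) were left out, 13647 sets had 1 gene, and the brightest set stood for each of 11983 genes. Symbols were updated by gene identifier through a RefSeq table (Release 6 plus ISO1 MT), where 11894 matched. limma 3.58.1 (R 4.3.3) fitted group means to all 9 arrays with eBayes and Benjamini-Hochberg adjustment over all genes. The steps were tested on simulated data. Figures used matplotlib 3.10.9.

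Genes and lists were chosen with earlier results of these data known. Values are given for list genes that passed, at most 8 per list and comparison by adjusted p, and for Rbf, Dp and Psc. In rbf1 against PSC the S phase genes are given as a range, and Psc is left out. The regulators of the G1/S genes, E2f2 and haemocyte markers that did not pass were named outside that rule. For each gene that passed anywhere, 3 nearest profiles were named. The number of arrays limits precision. The main fit did not pair arrays by replicate number. Same-numbered deviations from the group means correlated from -0.44 to 0.59. Such deviations sum to 0 over the 3 arrays of a group, so this range cannot decide whether the arrays are paired. A planned motif count in promoters was not run.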

Additional observations from a re-analysis of the deposited data

Results flagged for a closer look

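The effects of the rbf1 mutation and of PSC overexpression differed for 4 of the 5 G1/S genes when the altered groups were compared directly, where 10.6% of all genes passed, so each is given here. CycE was 0.92 and Cdk2 0.76 higher in rbf1 mutant than in PSC overexpressing discs. CycD and ago were lower in rbf1 mutant discs, at -0.31 and -0.20. The CycE and Cdk2 calls held with any 1 array left out. The CycD call was lost without PSC 1, PSC 2 or rbf1 3, and that of ago without 7 of the 9 arrays.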

How the results depend on the processing

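CycE and Cdk2 kept their direction and their call in rbf1 against control and in rbf1 against PSC under all 11 other settings and with each of the 9 arrays left out. The count of G1/S genes called stayed at 2 in rbf1 against control and at 0 in PSC against control throughout, and in rbf1 against PSC it was 2 to 4 with 1 array left out. Cdk4 in rbf1 against PSC turned from 0.01 to -0.05 with arrays centred on the median gene, a setting chosen after seeing the data, to -0.01 with array weights, and lay between -0.02 and 0.04 with 1 array left out; the cause was not tested. Genes of the pathway lists called in PSC against control numbered 1, and 2 among genes above the median level, with a robust trended fit or with array weights, 0 with only the 2 groups fitted, and 0 to 1 with 1 array left out. Of all genes, 275 passed in PSC against control with only those groups fitted and 272 without moderation. With 1 array left out 250 to 389 passed there, 787 to 1199 in rbf1 against control and 843 to 1288 in rbf1 against PSC. In rbf1 against control 61.7% of the calls were higher, 77.3% with arrays centred on the median of all probe sets and 48.1% with the median gene; in rbf1 against PSC the shares were 65.4%, 72.3% and 43.7%. With the replicate number as a block (replicate block) the G1/S calls were 2, 0 and 4 in the 3 comparisons and those of all genes 1306, 426 and 1315. Of 9 same-numbered pairs 4 correlated above 0.1, which does not settle whether arrays of the same number share a batch. Cdk2 was highest on replicate 2 and lowest on replicate 3 in each group. CycD and Cdk4 were also lowest on replicate 3 in each group, and CycE in control and PSC, while ago was highest on it in PSC. With the block the limma adjusted p of Cdk2 went from 0.00138 to 0.00019 in rbf1 against control and from 0.478 to 0.084 in PSC against control. That of CycE went from 0.0109 to 0.0184 in rbf1 against control. A shared batch was not tested. Marker calls were lost under some other settings for PPO1, PPO2, toy and vg in rbf1 against control, ase, mira, repo and vg in PSC against control, and NimC1, dac and dpn in rbf1 against PSC; those of repo, vg, ase, bab1, PPO1, PPO2, Fbp2 and ato in the remaining comparisons named were kept under each of the 11 that tested them (dim genes drop out of the setting above the median level).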
